A study of Arabidopsis thaliana with 10 samples.

Results

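The cruciferins and the 2S albumins are the main proteins that an Arabidopsis seed stores for germination, and 8 of their genes were followed here among the 33602 genes of the expression table. The rule took 3 cruciferin genes, CRA1 (AT5G44120), CRU2 (AT1G03880) and CRU3 (AT4G28520), and 5 albumin genes, SESA1 (AT4G27140), SESA2 (AT4G27150), SESA3 (AT4G27160), SESA4 (AT4G27170) and SESA5 (AT5G54740), by locus identifier. RNA was sequenced from seeds at 6 days after pollination (DAP) in 5 groups of 2 libraries, each library made from the seeds of 20 siliques. The mother was wild-type Landsberg erecta (Ler) in every cross, so each mutation was brought in by the pollen alone. The pollen parents were adm-2 osd1, suvh7-1 osd1, peg2 osd1 and osd1 for the 4 triploid groups, called triploid adm-2, triploid suvh7-1 and triploid peg2 seeds and, without a further mutation, triploid seeds, and wild-type Columbia (Col) for the diploid seeds. The osd1 mutation makes the plant form unreduced diploid pollen. It came from the Nossen accession and had been backcrossed into Col, and all 4 triploid groups carry it while the diploid group does not, so ploidy and the osd1 allele cannot be told apart. The suvh7-1 and peg2 alleles are T-DNA insertions. ADM, SUVH7 and PEG2 are paternally expressed imprinted genes, and the comparison of each mutant with the plain triploid seeds asks which transcripts differ when the pollen carries a mutant allele of one of them.

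Cruciferins are legumin-type globulins and the 2S albumins are small, sulphur-rich proteins. Both are made during seed maturation, pass through the secretory pathway and are cut to their mature chains by vacuolar processing enzymes in the protein storage vacuoles. Their genes are known targets of the maturation regulators LEC1, LEC2, FUS3 and ABI3 and of bZIP factors such as BZIP53. LEC2, FUS3 and ABI3 have B3 domains that bind the RY element, whose core is CATGCA, and bZIP factors bind elements with an ACGT core. In Arabidopsis these transcripts accumulate mainly in the maturing embryo, with a smaller part in the endosperm, and a seed at 6 DAP stands early in that programme.

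Levels are given in RPKM, that is, read counts divided by the length of the gene model and by the reads of the library. Read totals recovered from the steps between RPKM values were 53578700 to 70744100 per library. For each of the 8 genes, the length was chosen that brought its lower values closest to whole reads, within about 0.0014 of a read. Higher values were not checked, and such a fit is no check of the recovery. The genes' summed level was 0.000382 to 0.0234% of a library's summed RPKM. Of the genes mutated in the pollen, SUVH7 had 0.640 and 0.956 RPKM in triploid suvh7-1 seeds, against 3.09 and 3.16 RPKM in triploid seeds, and PEG2 had 0.238 and 0.0808 RPKM in triploid peg2 seeds, against 3.54 and 4.10 RPKM. ADM had 0.251 and 0.237 RPKM in triploid adm-2 seeds, against 2.42 and 4.01 RPKM in triploid seeds. In mean RPKM, PEG2 was at 0.294 times its level in triploid seeds in adm-2 and 0.164 times in suvh7-1 seeds. ADM was likewise at 0.228 times in suvh7-1 and, with overlapping libraries, 0.786 times in peg2 seeds. SUVH7 was at 1.02 times in adm-2 and 0.981 times in peg2 seeds. OSD1, mutated in all triploid pollen parents, was at 0.208 times its diploid level in triploid seeds. That ratio was 0.397 in adm-2, 0.353 in suvh7-1 and 0.160 in peg2 seeds. Whole seeds were sampled, and the summed level of 10 seed coat markers was 1836 to 2101 RPKM and that of 3 silique wall markers 9.04 to 17.4 RPKM over the 10 libraries. In such samples fewer cells of a type and less RNA per cell cannot be told apart.

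The 4 genes SESA1 to SESA4 form a tandem array on the plus strand of chromosome 4, between positions 13607329 and 13614283 of the TAIR10.1 assembly, each with 1 exon. CRU3 lies further along on chromosome 4 (14087556 to 14089796, plus strand, 4 exons), CRA1 and SESA5 on chromosome 5 (17756238 to 17758336 and 22238358 to 22239187, both minus strand, 3 exons and 1 exon), and CRU2 on chromosome 1. Coding sequences of SESA1 to SESA4 were 82.6 to 94.1% identical, with SESA2 and SESA3 the closest pair. The longest identical stretch between their transcripts was 49 bases, shorter than the study's reads before trimming. Only shortened or mismatched reads could thus fit more than 1 copy. The split of reads among SESA1 to SESA4 may still be less certain than their sum, which was not tested. SESA5 was 68.7 to 70.1% identical to them and the cruciferins 66.5 to 76.4% to each other. Cruciferins against albumins, aligned in the same way with gaps left out, gave 71.7 to 77.5%. The SESA5 and cruciferin values are thus no higher than those between the families.

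Promoters were examined for CRA1, CRU3 and the 5 albumin genes. They are shown for 3 of these, because the RY core was at its most frequent in SESA3, and because the levels of SESA1 and CRU3 were the least alike of any members (Pearson's r = 0.49 on the log2 scale over the 10 libraries, which fall into 5 groups). Each line gives the 250 bases before the RefSeq gene start in TAIR10.1, 5' to 3', with RY cores (CATGCA or its complement TGCATG) and ACGT cores in capitals. The windows are chr4:13611546-13611795 for SESA3, chr4:13607079-13607328 for SESA1 and chr4:14087306-14087555 for CRU3, all on the plus strand.
SESA3: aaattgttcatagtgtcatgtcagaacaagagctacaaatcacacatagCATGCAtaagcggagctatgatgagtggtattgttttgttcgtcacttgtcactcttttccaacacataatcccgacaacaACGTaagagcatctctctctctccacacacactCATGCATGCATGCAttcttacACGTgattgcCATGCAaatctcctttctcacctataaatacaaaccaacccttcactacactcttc
SESA1: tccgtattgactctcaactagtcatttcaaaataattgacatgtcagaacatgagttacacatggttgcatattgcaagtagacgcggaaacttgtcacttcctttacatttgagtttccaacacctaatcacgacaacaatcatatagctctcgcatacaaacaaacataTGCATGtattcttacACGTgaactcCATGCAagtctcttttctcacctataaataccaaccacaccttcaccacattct
CRU3: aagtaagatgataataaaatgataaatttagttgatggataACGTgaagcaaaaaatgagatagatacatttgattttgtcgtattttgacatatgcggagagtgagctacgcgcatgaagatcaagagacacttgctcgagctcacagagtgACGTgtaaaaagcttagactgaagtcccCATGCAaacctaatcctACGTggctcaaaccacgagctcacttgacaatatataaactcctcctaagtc

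On both strands and counting overlapping matches, CATGCA stood in each of the 7 windows examined, with 7 matches in SESA3, 6 in SESA4, 4 in SESA5, 3 in SESA2, 2 in SESA1, 2 in CRA1 and 1 in CRU3. Of 27443 windows of the same length before protein-coding genes, 8.43% held it and 1.66% held it 2 or more times. The longer RY form CATGCATG, whose matches also hold CATGCA, was in 3 of the 7 windows and in 0.776% of all windows. The ACGT core was in 6 of the 7 and in 44.1% of all windows, and the G-box CACGTG, which includes ACGT, was in all 5 albumin windows, in neither CRA1 nor CRU3 and in 6.49% of all windows. In the 5 albumin promoters the G-box lay 65 to 68 bases and an RY core 54 to 57 bases before the gene start. These are matches of letters, and no match says only that the letters are not in this window.

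**Figure D1:**
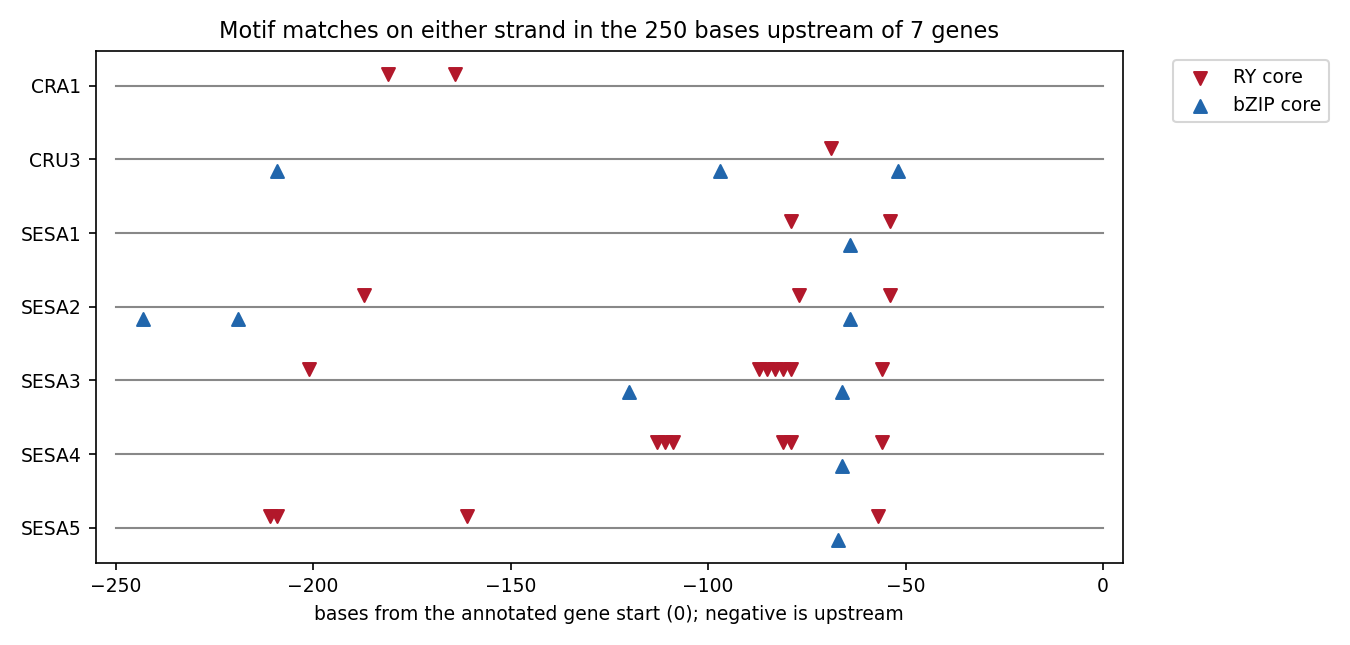
Positions of the RY core (CATGCA) and of the ACGT core (bZIP core in the legend) in the 250 bases before the annotated start of CRA1, CRU3 and the 5 albumin genes, with distance from the gene start in bases on the x axis and 1 row per gene. The 5 albumin rows share an ACGT core 64 to 67 bases and an RY core 54 to 57 bases before the start.

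Among the cruciferins, transcripts of CRA1 were present in every library, whereas those of CRU2 and CRU3 gave few reads outside triploid adm-2 and suvh7-1 seeds. CRA1 had 15.0 and 16.8 RPKM in triploid adm-2 seeds and 14.9 and 24.5 RPKM in triploid suvh7-1 seeds, 0.837 and 2.24 RPKM in triploid peg2 seeds and 1.93 and 1.19 RPKM in triploid seeds, against 7.59 and 7.90 RPKM in diploid seeds. Both adm-2 and both suvh7-1 libraries lay above the diploid libraries, which in turn lay above the peg2 and plain triploid libraries. The 2 lowest groups overlapped, as did the 2 highest.

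CRU2 had 6.15 and 5.76 RPKM in triploid adm-2 seeds and 4.49 and 9.01 RPKM in triploid suvh7-1 seeds, 0 and 0.0403 RPKM in triploid peg2 seeds and 0.0229 and 0 RPKM in triploid seeds, against 0.216 and 0.160 RPKM in diploid seeds. The diploid libraries were between a high pair of groups and a low pair, and the libraries overlapped within each pair. Summed over the 2 libraries of a group, the reads were 1154 in adm-2 and 1215 in suvh7-1 seeds, 4 in peg2 seeds, 2 in triploid seeds and 42 in diploid seeds. CRU3 had 9.45 and 9.34 RPKM in triploid adm-2 seeds and 5.49 and 12.8 RPKM in triploid suvh7-1 seeds, 0.0337 and 0.0366 RPKM in triploid peg2 seeds and 0.0208 and 0 RPKM in triploid seeds, against 0.0157 and 0 RPKM in diploid seeds. CRU3 was thus the member with no more reads in diploid than in triploid seeds, 2 reads in each group, beside 2004 reads in adm-2, 1811 in suvh7-1 and 8 in peg2 seeds. No difference between triploid and diploid seeds was detectable for it at this depth.

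SESA3 was the most abundant of the 8 transcripts per length in adm-2 and suvh7-1 seeds. Its levels were 45.4 and 44.2 RPKM in triploid adm-2 seeds and 35.9 and 63.9 RPKM in triploid suvh7-1 seeds, 0.729 and 2.03 RPKM in triploid peg2 seeds and 0.437 and 0.339 RPKM in triploid seeds, against 20.9 and 7.87 RPKM in diploid seeds. The 5 groups fell in the order suvh7-1 and adm-2, which overlapped, then diploid, peg2 and triploid, each apart from the next. SESA2, its closest copy, had 19.8 and 20.8 RPKM in triploid adm-2 seeds and 15.2 and 32.3 RPKM in triploid suvh7-1 seeds, 0 and 0.179 RPKM in triploid peg2 seeds and 0.0508 and 0.375 RPKM in triploid seeds, against 1.02 and 1.21 RPKM in diploid seeds. The peg2 and plain triploid libraries overlapped, and the diploid libraries stood above them and below adm-2 and suvh7-1.

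SESA1 differed in its order. It had 5.27 and 3.70 RPKM in triploid adm-2 seeds and 5.01 and 8.09 RPKM in triploid suvh7-1 seeds, 0.947 and 1.29 RPKM in triploid peg2 seeds and 0.558 and 0.131 RPKM in triploid seeds, against 9.97 and 7.86 RPKM in diploid seeds. The diploid mean was the highest of the 5, overlapping suvh7-1 but not adm-2, and the peg2 libraries lay between those of adm-2 and of the plain triploid seeds. SESA4 had 13.5 and 12.4 RPKM in triploid adm-2 seeds and 11.3 and 17.1 RPKM in triploid suvh7-1 seeds, 1.19 and 1.29 RPKM in triploid peg2 seeds and 1.14 and 0.712 RPKM in triploid seeds, against 2.63 and 1.63 RPKM in diploid seeds. Its 3 lower groups lay close together without overlapping, and both higher groups were well above them.

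SESA5, apart from the array, was the least expressed albumin. Its levels were 0.601 and 0.330 RPKM in triploid adm-2 seeds and 0.770 and 1.94 RPKM in triploid suvh7-1 seeds, 0.0365 and 0 RPKM in triploid peg2 seeds and 0 and 0.0369 RPKM in triploid seeds, against 0.409 and 0.0924 RPKM in diploid seeds. Here suvh7-1 stood above adm-2 without overlap, the adm-2 and diploid libraries overlapped, and peg2 and triploid seeds gave 2 reads each.

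**Figure D2:**
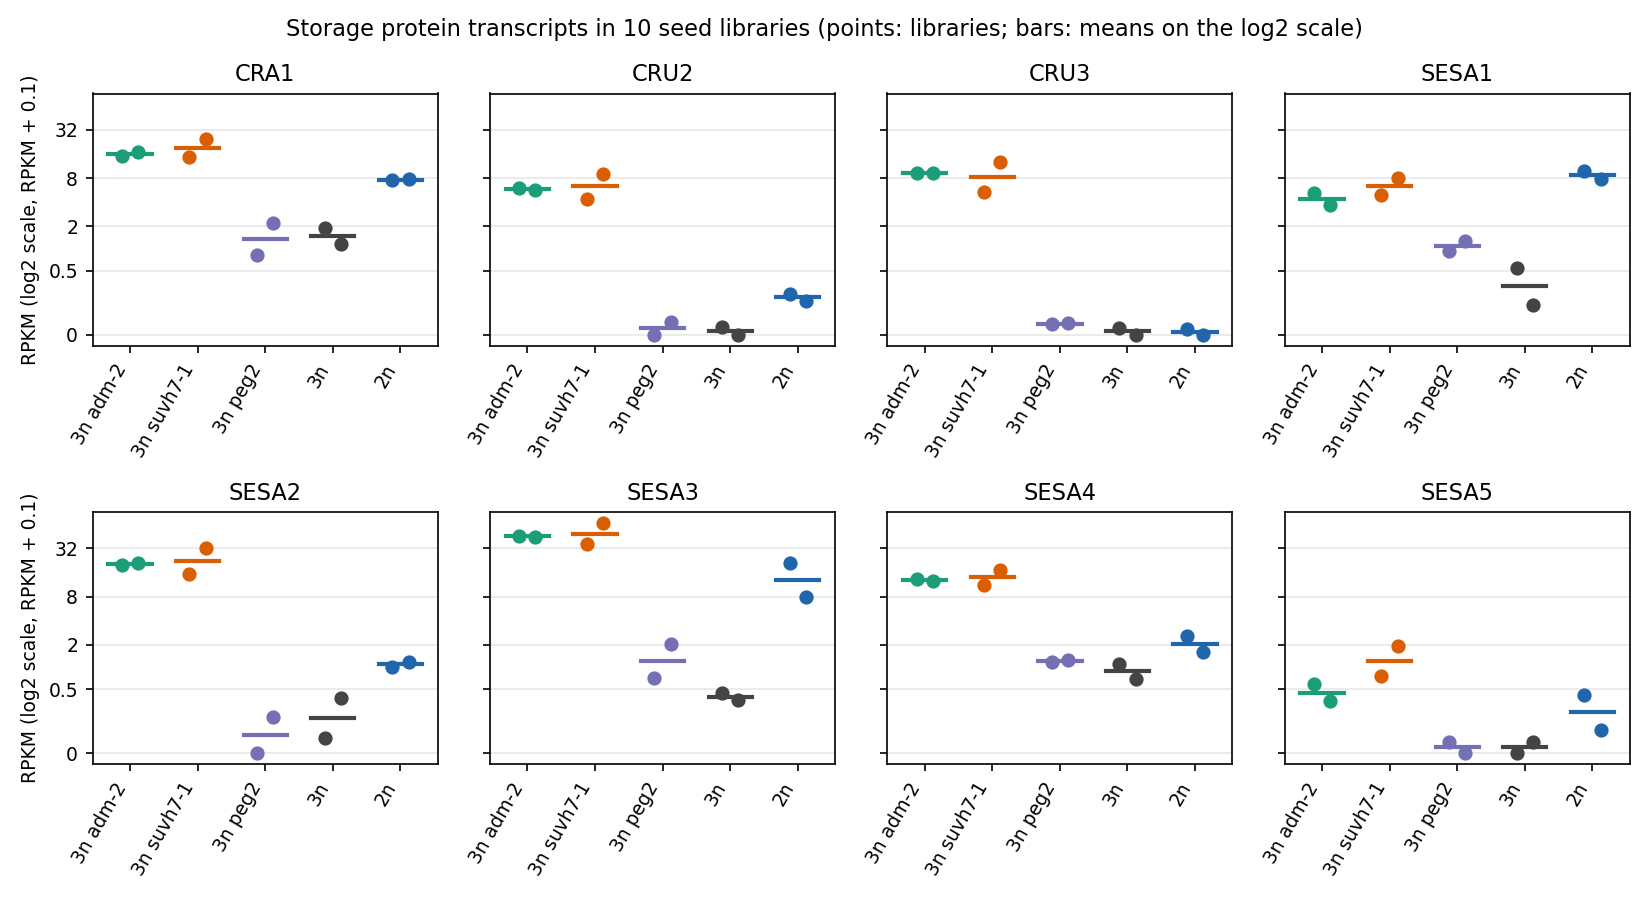
RPKM of each of the 8 genes in the 10 libraries, on a log2(RPKM + 0.1) axis, with groups from left to right adm-2, suvh7-1 and peg2 (all triploid), triploid seeds (3n) and diploid seeds (2n). Points are libraries and bars are group means on that scale, and in all 8 panels every adm-2 and suvh7-1 point lies above every peg2 and plain triploid point, as was the case for 10.4% of the 26601 genes tested.

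Triploid adm-2 seeds were compared with triploid seeds to see which storage transcripts differ when the pollen carries adm-2. All 8 were higher, by limma on log2(RPKM + 0.1) with a Benjamini-Hochberg adjusted p under 0.05 and a log2 fold change past 1, where 2.67% of the 26601 genes tested were called higher. The median log2 fold change was 4.73, and 0.10 over all genes. SESA3, CRU3 and SESA2 had fitted log2 fold changes of 6.53 (SE 0.54, adjusted p = 0.00151), 6.43 (SE 0.35, adjusted p = 0.000453) and 6.25 (SE 0.63, adjusted p = 0.00255), and CRU2 had 5.77 (SE 0.34, adjusted p = 0.000611). SESA4, SESA1 and CRA1 followed with 3.70, 3.54 and 3.31 (adjusted p = 0.00136, 0.00527 and 0.00468), and SESA5 with 2.23 (SE 0.55, adjusted p = 0.0418). In mean RPKM the ratio of adm-2 to triploid seeds was 115 for SESA3, 95.2 for SESA2, 14.0 for SESA4, 13.0 for SESA1 and 10.2 for CRA1.

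Where triploid seeds gave 2 reads, the fitted fold change rests on the pseudocount, and the ratio of reads corrected for library totals was taken instead. It was 1004 for CRU3 (95% exact interval 278 to 8297), 578 for CRU2 (159.7 to 4780.1) and 23.0 for SESA5 (6.03 to 196). These intervals cover counting error only. The call of CRA1 was lost without adm-2 replicate 1 or 2 (adjusted p = 0.0534 and 0.0524) and that of SESA1 without adm-2 replicate 1 (adjusted p = 0.0655). SESA5 was not called without either library of adm-2 (adjusted p = 0.234 and 0.121), of triploid (0.155 and 0.0849) or of peg2 seeds (0.0659 and 0.0661), nor with a pseudocount of 1 (0.180).

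Triploid suvh7-1 seeds, mutant in a homologue of histone methyltransferases, also had all 8 transcripts higher than triploid seeds, where 2.15% of genes were called higher. The median log2 fold change was 4.96, and -0.04 over all genes. SESA3 changed by 6.63 (SE 0.54, adjusted p = 0.000826), SESA2 by 6.38 (SE 0.63, adjusted p = 0.00114), CRU3 by 6.27 (SE 0.35, adjusted p = 0.000232) and CRU2 by 5.87 (SE 0.34, adjusted p = 0.000232). SESA1, SESA4, CRA1 and SESA5 changed by 4.05, 3.80, 3.57 and 3.51 (adjusted p = 0.00193, 0.000667, 0.00207 and 0.00618). Read ratios against the 2 reads of triploid seeds were 978 for CRU3 (270.4 to 8085), 656 for CRU2 (181 to 5426) and 67.0 for SESA5 (18.2 to 559). The 8 calls were made with each of the 10 libraries left out in turn. The adm-2 and suvh7-1 comparisons share the 2 triploid libraries.

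No member was called between triploid suvh7-1 and adm-2 seeds in either direction, where 0.372% of genes were called higher and 3.51% lower, and 1 member had an unadjusted p under 0.05. That was SESA5, at a log2 difference of 1.28 (95% interval 0.02 to 2.54, unadjusted p = 0.0472, adjusted p = 0.156 by limma). For the other 7 the difference lay between -0.16 (CRU3, interval -0.98 to 0.65) and 0.52 (SESA1, interval -0.56 to 1.60). The narrowest interval was that of SESA4, -0.57 to 0.77, and the widest of the 7 that of SESA2, -1.33 to 1.59, so differences within these bounds were not detectable.

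In triploid peg2 seeds no member was called against triploid seeds, where 0.0677% of genes were called higher and 0.139% lower. SESA1 and SESA3 had an unadjusted p under 0.05 by limma, with log2 fold changes of 1.63 (95% interval 0.55 to 2.71, unadjusted p = 0.00824, adjusted p = 0.316) and 1.45 (0.21 to 2.70, unadjusted p = 0.0276, adjusted p = 0.495). For CRA1 the difference was -0.13 (interval -1.09 to 0.84), for SESA4 0.42 (-0.25 to 1.09) and for SESA2 -0.68 (-2.14 to 0.78). CRU3 gave 8 reads in peg2 and 2 in triploid seeds, a ratio of 3.75 with an interval of 0.748 to 36.2. CRU2 gave 4 and 2 reads, and SESA5 2 reads in each group.

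Set against the other mutants, peg2 seeds had all 8 transcripts lower than adm-2 seeds, where 4.18% of genes were called lower, and all 8 lower than suvh7-1 seeds, where 2.32% were. In mean RPKM the ratio of peg2 to adm-2 seeds ran from 0.00338 for CRU2, 0.00374 for CRU3 and 0.00441 for SESA2 to 0.249 for SESA1, and that of peg2 to suvh7-1 seeds from 0.00298 for CRU2, 0.00377 for SESA2 and 0.00384 for CRU3 to 0.171 for SESA1, where CRU2 rested on 4 and CRU3 and SESA2 on 8 reads in peg2 seeds. The fitted log2 fold changes, which depend on the pseudocount at such levels, were -1.91 for SESA1 against adm-2 and -2.42 against suvh7-1 seeds, and lower for the other 7. SESA1 lost its call against adm-2 without either adm-2, peg2 or diploid library (adjusted p = 0.0534 to 0.165) and against suvh7-1 without suvh7-1 replicate 2 or either peg2 library (0.0565 to 0.115). SESA5 lost its call against adm-2 without either library of either group (0.0836 to 0.165).

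**Figure D3:**
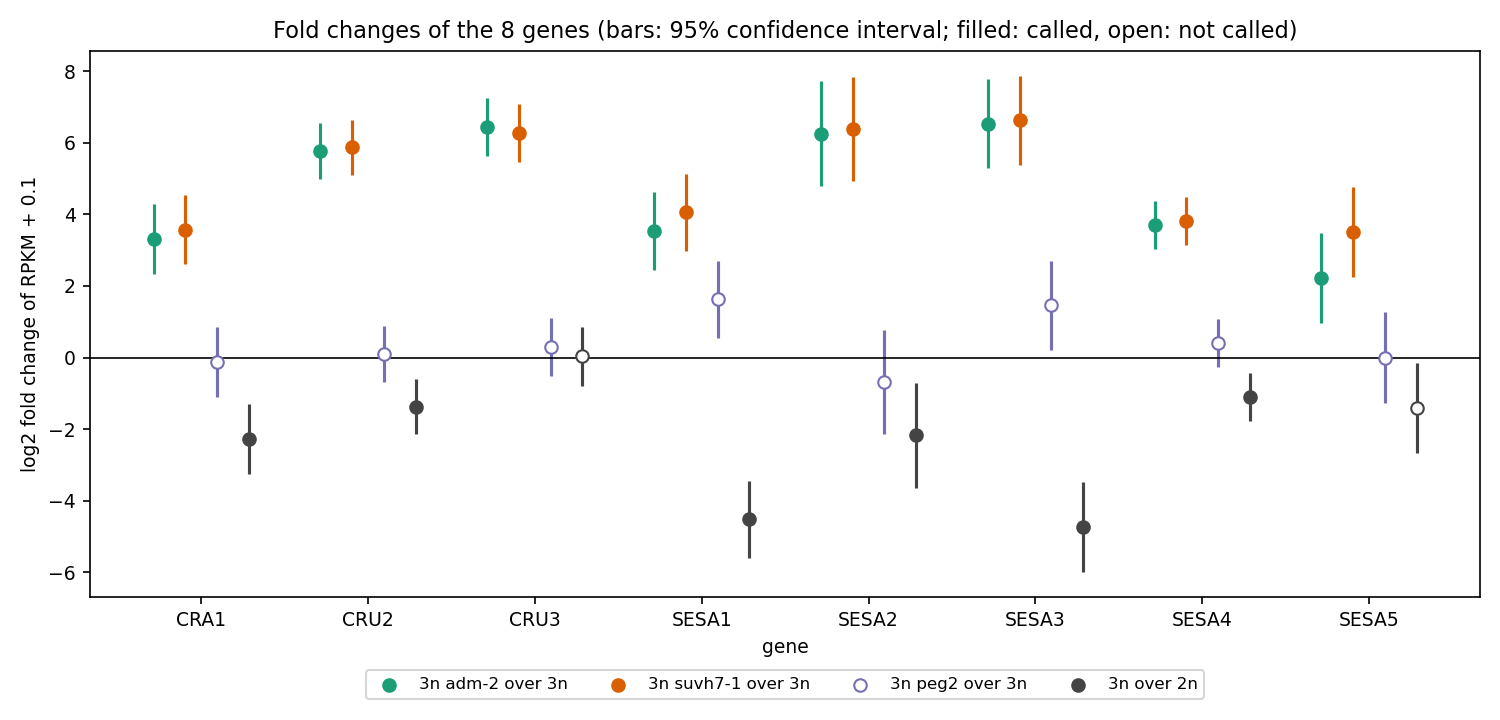
Log2 fold change on the log2(RPKM + 0.1) scale with its 95% interval for each of the 8 genes, for adm-2, suvh7-1 and peg2 triploids over triploid seeds and in triploid over diploid seeds. Filled points passed both thresholds and open points did not: all 8 are filled for adm-2 and for suvh7-1, 0 for peg2, and 6 for triploid over diploid seeds, where all 6 lie below 0.

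Triploid seeds had 6 of the 8 transcripts lower than diploid seeds, where 9.94% of genes were called lower. The median log2 fold change was -1.80, and -0.01 over all genes. SESA3 and SESA1 fell by 4.74 (SE 0.54, adjusted p = 0.000191) and 4.52 (SE 0.47, adjusted p = 0.000108) on the log2 scale, CRA1 by 2.28 (SE 0.42, adjusted p = 0.00264), SESA2 by 2.18 (SE 0.63, adjusted p = 0.0233), CRU2 by 1.37 (SE 0.34, adjusted p = 0.0111) and SESA4 by 1.11 (SE 0.29, adjusted p = 0.0145). SESA5 had a log2 fold change of -1.42 (SE 0.55, adjusted p = 0.0667) and was not called, with 2 reads in triploid and 29 in diploid seeds (ratio 0.0789, interval 0.00912 to 0.312). For CRU2 the read ratio was 0.0545 (0.00639 to 0.209). CRU3, at 2 reads in each group, allows no fold.

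The calls of CRA1, SESA1 and SESA3 were made under every alternative tried. SESA2 was not called without triploid replicate 1 or either diploid library (adjusted p = 0.146, 0.0891 and 0.111), CRU2 and SESA4 were not called without triploid replicate 2 (0.0627 and 0.0913) or diploid replicate 1 (0.0748 and 0.111), and SESA5 was called without diploid replicate 2 (log2 fold change -2.12, adjusted p = 0.0269).

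Against diploid seeds, CRU2, CRU3, SESA2, SESA3 and SESA4 were higher in both adm-2 and suvh7-1 seeds. Triploid adm-2 seeds had 5 higher, where 9.89% of genes were called higher: CRU3, CRU2, SESA2, SESA4 and SESA3, with log2 fold changes of 6.46, 4.40, 4.07, 2.59 and 1.79 (adjusted p = 4.49e-06, 3.06e-05, 0.00135, 0.000245 and 0.0285). CRA1 was at 1.03 (interval 0.06 to 2.00, adjusted p = 0.0825), SESA5 at 0.81 (adjusted p = 0.273) and SESA1 at -0.99 (interval -2.06 to 0.09, adjusted p = 0.127). Triploid suvh7-1 seeds had 7 higher, where 6.54% were called higher, with CRU3 at 6.30, CRU2 at 4.50, SESA2 at 4.20, SESA4 at 2.69, SESA5 at 2.09, SESA3 at 1.89 and CRA1 at 1.29 (adjusted p = 6.56e-06, 3.41e-05, 0.00138, 0.000246, 0.0184, 0.0267 and 0.0436). SESA1 was at -0.47 (interval -1.55 to 0.61, adjusted p = 0.488). By reads, CRU3 was 1148 times its diploid level in adm-2 seeds (317 to 9487) and 1119 times in suvh7-1 seeds (309 to 9244).

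In mean RPKM the ratio of adm-2 to diploid seeds was 31.7 for CRU2, 18.2 for SESA2, 6.08 for SESA4, 3.11 for SESA3, 2.06 for CRA1 and 0.503 for SESA1. Members of 1 family, and even neighbours in the array, thus had ratios on both sides of 1. SESA1, the only member below 1, was not called (adjusted p = 0.127 by limma), and the split of reads within the array may be uncertain. Both comparisons share the diploid libraries. SESA3 lost its call in adm-2 seeds without either adm-2 library or diploid replicate 2 (adjusted p = 0.115, 0.107 and 0.185). In suvh7-1 seeds the number called was 4 without suvh7-1 replicate 2 and 4 without diploid replicate 2, with CRA1, SESA3 and SESA5 no longer called at adjusted p = 0.220, 0.147 and 0.110 and at 0.145, 0.176 and 0.122, and CRA1 lost its call without any 1 of the adm-2, suvh7-1, triploid or diploid libraries (0.0532 to 0.220). CRA1 became called in adm-2 seeds without either peg2 library (0.0245 and 0.0249).

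Triploid peg2 seeds had 5 members lower than diploid seeds, where 10.6% of genes were called lower. These were SESA3, SESA1, SESA2, CRA1 and CRU2, at log2 fold changes of -3.28, -2.89, -2.86, -2.41 and -1.28 (adjusted p = 0.00138, 0.00125, 0.00644, 0.00188 and 0.0147). SESA4 and SESA5 were at -0.70 and -1.42 (adjusted p = 0.0839 and 0.0646), and for SESA5 the read ratio was 0.0739 (0.00854 to 0.292) at 2 reads in peg2 and 29 in diploid seeds. Both were called without diploid replicate 2 (adjusted p = 0.0450 and 0.0262), SESA5 also without either suvh7-1 library (0.0497 and 0.0495). CRU2 was not called without peg2 replicate 1 (0.0944) or diploid replicate 1 (0.0895).

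The summed level of the 8 genes was made up differently in adm-2 and suvh7-1 seeds than in diploid seeds, with more SESA2 and CRU3 and less SESA1. These shares are a description, with no test. SESA3 made up 39.2% ± 0.255 of it in triploid adm-2 seeds and 38.1% ± 0.609 in suvh7-1 seeds, 24.0% ± 6.56 in peg2 seeds and 11.4% ± 1.17 in triploid seeds, against 39.2% ± 13.8 in diploid seeds (SD, n = 2). CRU3 made up 8.23% in adm-2 and 6.72% in suvh7-1 seeds, against 0.0184% in diploid seeds. SESA2 stood at 17.8% in adm-2 and 17.7% in suvh7-1 seeds, against 3.46% in diploid seeds. For SESA1 the order was the other way, 3.92% in adm-2 and 5.08% in suvh7-1 seeds, against 26.4% in diploid seeds. The 3 cruciferins together gave 27.4% in adm-2, 27.0% in suvh7-1, 27.8% in peg2 and 45.1% in triploid seeds, against 24.2% in diploid seeds, and in triploid seeds nearly all of this was CRA1, at 44.5%.

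**Figure D4:**
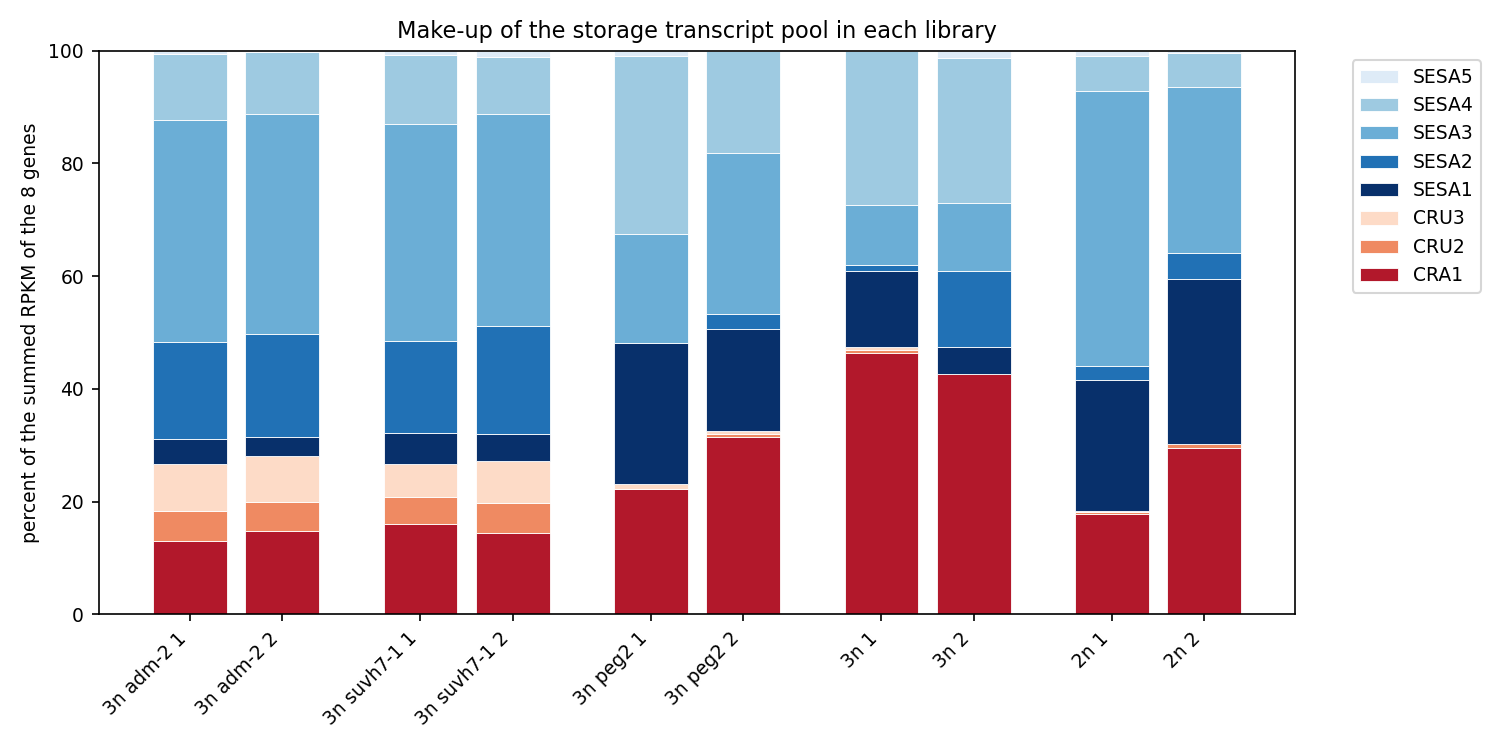
Share of each of the 8 genes in their summed RPKM, in percent, for the 10 libraries, stacked from the cruciferins to the albumins. The 2 adm-2 and 2 suvh7-1 bars look alike, with SESA3 at 37.7 to 39.4%, while the diploid bars hold 23.3 to 29.4% SESA1 and the triploid bars 42.7 to 46.4% CRA1.

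Libraries of a group differed in the level of the members together. All 8 were higher in suvh7-1 replicate 2 than in replicate 1, by 1.51 times for SESA4 to 2.52 times for SESA5, and the summed RPKM of the 8 was 93.1 and 169.5 in suvh7-1 seeds, 115 and 113 in adm-2 seeds, 3.77 and 7.11 in peg2 seeds, 4.16 and 2.78 in triploid seeds and 42.8 and 26.7 in diploid seeds. In each of the 5 groups the library with the higher sum also had the higher summed level of 8 oil body protein genes. SESA3 and SESA5 were 2.66 and 4.42 times as high in diploid replicate 1 as in replicate 2.

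The regulators of maturation were read beside their targets. Of 12 measured, 8 were lower in triploid than in diploid seeds, 4 were higher in adm-2 than in triploid seeds and 4 higher in suvh7-1 than in triploid seeds. Over all genes the shares called were 9.94%, 2.67% and 2.15%, in the same order. The 4 were the same genes in both mutants, L1L, BZIP67, LEC2 and WRI1. L1L, a LEC1-like subunit of the NF-Y complex, had 15.5 and 16.0 RPKM in adm-2 and 13.9 and 17.05 RPKM in suvh7-1 seeds, 2.996 and 5.68 RPKM in peg2 and 4.61 and 2.87 RPKM in triploid seeds, against 131.6 and 93.8 RPKM in diploid seeds. Log2 fold changes over triploid seeds were 2.08 in adm-2 and 2.05 in suvh7-1 seeds for L1L, 2.63 and 2.39 for the seed bZIP factor BZIP67, 1.42 and 1.17 for LEC2, and 1.01 and 1.07 for WRI1, which controls oil synthesis. Against diploid seeds none of the 12 was called higher in either mutant, and 6 of 12 were lower in adm-2 seeds and 6 in suvh7-1 seeds, where 6.5% and 6.63% of genes were called lower. Of 4 genes listed as maturation repressors, 3 were lower in triploid than in diploid seeds, where 9.94% of genes were. Over triploid seeds 1 of these 4, MYB115, was called higher, at 1.98 in adm-2 and 1.64 in suvh7-1 seeds. Their median log2 fold changes were 0.78 and 0.55, beside 0.10 and -0.04 over all genes.

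FUS3 and ABI3, B3 regulators of storage genes, were not called higher in adm-2 or suvh7-1 than in triploid seeds. FUS3 had 7.49 and 7.21 RPKM in adm-2 and 6.34 and 8.93 RPKM in suvh7-1 seeds, 2.57 and 4.05 RPKM in peg2 and 4.03 and 3.61 RPKM in triploid seeds, against 32.7 and 28.3 RPKM in diploid seeds. Though not called, FUS3 was higher in every adm-2 and suvh7-1 library than in every peg2 and triploid library, as were 10.4% of the genes tested. Its log2 fold change against diploid seeds was -2.04 in adm-2 and -2.002 in suvh7-1 seeds, and that of ABI3 -1.99 and -1.60. LEC2 alone of the LEC and B3 regulators reached the diploid range, with 13.0 and 13.8 RPKM in adm-2 and 9.83 and 12.9 RPKM in suvh7-1 seeds, against 9.70 and 10.8 RPKM in diploid seeds. In triploid seeds LEC2 had 5.44 and 4.50 RPKM.

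The genes of the oil body coat, whose oleosins surround the other main seed reserve, were higher in part than in triploid seeds, while the oleosins were lower than in diploid seeds. Of 8, 6 were lower in triploid than in diploid seeds, 6 higher in adm-2 and 6 higher in suvh7-1 than in triploid seeds. Over all genes the shares called were 9.94%, 2.67% and 2.15%, in the same order. OLEO2 was called higher than in triploid seeds in neither mutant (adjusted p = 0.0714 and 0.0536 by limma). In each of these mutants 5, all oleosins, were lower than in diploid seeds, where 6.5% of genes were called lower for adm-2 and 6.63% for suvh7-1. OLEO5 had 35.2 and 31.2 RPKM in adm-2 and 22.8 and 28.7 RPKM in suvh7-1 seeds, 4.91 and 9.45 RPKM in peg2 and 6.51 and 3.52 RPKM in triploid seeds, against 224 and 123 RPKM in diploid seeds. OLEO3, the most abundant oleosin, had 71.4 and 79.1 RPKM in adm-2 and 72.3 and 96.2 RPKM in suvh7-1 seeds, against 530 and 328 RPKM in diploid seeds. Median log2 fold changes against diploid seeds were -1.54 in adm-2 and -1.36 in suvh7-1 seeds for the 8 oil body genes, and 2.19 and 2.39 for the 8 storage protein genes, beside 0.05 and -0.09 over all genes. The 2 oil body genes called higher than in diploid seeds in adm-2 seeds were CLO2 and HSD1, each under 0.4 RPKM, and HSD1 has a near-identical copy that makes its value uncertain. CLO1 was at a log2 fold change of 0.91, under the fold threshold (adjusted p = 0.0128 by limma), and these 3 genes were chosen here after their values were seen.

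**Figure D5:**
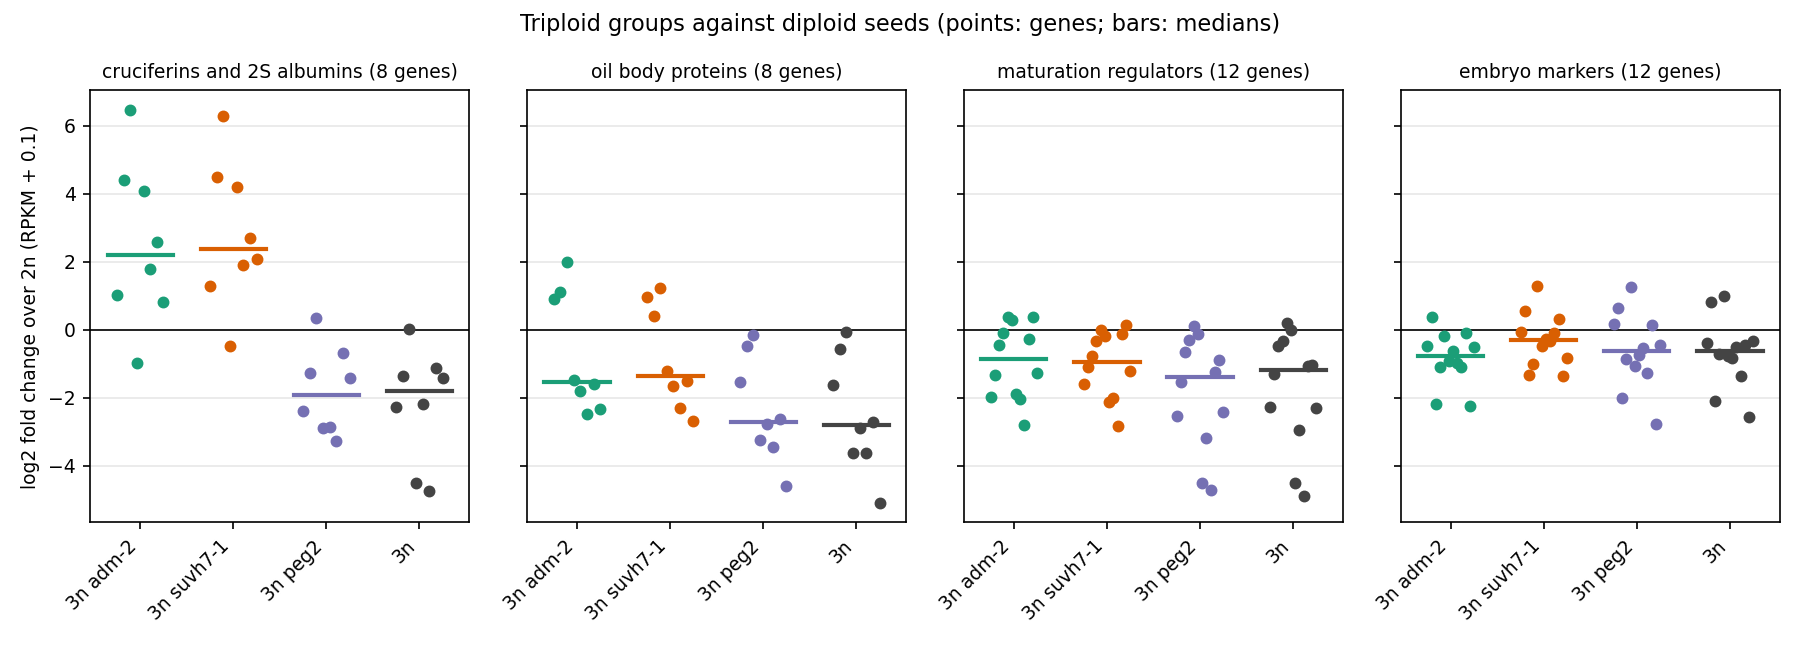
Log2 fold change over diploid seeds, on the log2(RPKM + 0.1) scale, of the 8 storage protein genes, 8 oil body protein genes, 12 maturation regulators and 12 embryo markers in adm-2, suvh7-1 and peg2 triploids and in triploid seeds. Points are genes and bars are medians, and the median of the storage protein genes is 2.19 in adm-2 and 2.39 in suvh7-1 seeds while that of the oil body genes is -1.54 and -1.36.

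Of 4 further storage genes of the cupin family, 3 were lower in triploid than in diploid seeds and 3 higher in adm-2 and in suvh7-1 than in triploid seeds. Over all genes the shares called were 9.94%, 2.67% and 2.15%, in the same order. The other, CRD, was not called in these comparisons, at log2 fold changes of 0.89, 0.86 and -0.47 in that order. It was called lower in suvh7-1 than in adm-2 seeds (-1.33), as were 3.51% of all genes. PAP85, a vicilin-like globulin, had 1.88 and 1.77 RPKM in adm-2 and 1.21 and 2.22 RPKM in suvh7-1 seeds, 0.0274 and 0.0694 RPKM in peg2 and 0.0450 and 0.0185 RPKM in triploid seeds, against 2.54 and 0.592 RPKM in diploid seeds. Among 8 late embryogenesis genes, 7 were tested. ECP63 and PER1 were lower in triploid than in diploid seeds and LEA4-5 was higher, at log2 fold changes of -3.41, -3.71 and 3.75. Of all genes, 9.94% were called lower and 9.53% higher there. Against triploid seeds 3 of the 7, ECP63 and PER1 among them, were called higher in adm-2 and 3 in suvh7-1 seeds. The shares of all genes were 2.67% and 2.15%. EM1, EM6 and M17, which mark late maturation, were at or below 0.201 RPKM in every library. Of 9 genes for vacuolar processing and sorting, 1 was higher and 4 lower in triploid than in diploid seeds, where 9.53% of genes were called higher and 9.94% lower. Against triploid seeds 1 was higher in adm-2 seeds, ALPHA-VPE at a log2 fold change of 1.25 (named after its values were seen), and another in suvh7-1 seeds, PASPA3 at 1.06. Over all genes 2.67% were called higher in adm-2 and 2.15% in suvh7-1 than in triploid seeds. The gene higher in triploid than in diploid seeds was DELTA-VPE, a seed coat processing enzyme, where 9.53% of all genes were called higher, with 3663 and 4239 RPKM in triploid seeds, against 1801 and 2104 RPKM in diploid seeds.

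Embryo markers were read beside the members because storage transcripts accumulate mainly in the embryo. Summed over 12 markers they were at 14.4 and 15.6 RPKM in adm-2 and 24.5 and 23.9 RPKM in suvh7-1 seeds, 15.7 and 19.7 RPKM in peg2 and 15.9 and 16.4 RPKM in triploid seeds, against 38.2 and 38.3 RPKM in diploid seeds. In adm-2 seeds the sum was not above that of triploid seeds. There 0 of 12 markers were called higher (2.67% of all genes were) and 1, DRNL, was called lower (0.722% of all genes were). In suvh7-1 seeds 2 of 12, WOX9 and TMO7, were called higher than in triploid seeds, as were 2.15% of all genes. WOX9, a regulator of the early embryo, had 4.02 and 4.26 RPKM in adm-2 and 6.98 and 8.44 RPKM in suvh7-1 seeds, against 3.37 and 3.18 RPKM in triploid seeds. DRN and WUS were at or below 0.224 RPKM in every library, and no marker of the 12 was at 0 throughout. The summed level of 10 endosperm markers was 225 and 228 RPKM in adm-2 and 205 and 205 RPKM in suvh7-1 seeds, 189 and 192 RPKM in peg2 and 227 and 235 RPKM in triploid seeds, against 163 and 150.3 RPKM in diploid seeds. Of the 10, 5 were called higher and 4 lower in triploid than in diploid seeds, where 9.53% of all genes were called higher and 9.94% lower. Against triploid seeds 0 were called higher and 0 lower in adm-2 seeds and 3 lower in suvh7-1 seeds, where 2.82% of all genes were called lower. The part of embryo or endosperm RNA in the storage transcript levels was not tested.

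The SESA array is flanked by genes that were not called. AT4G27120 and AT4G27130 lie before it and AT4G27180 after it, and none of the 3 was called in any of the 10 comparisons of groups. Few genes were called in most comparisons, for example 2.67% higher and 0.722% lower in adm-2 than in triploid seeds. Triploid against diploid seeds gave 9.53% higher and 9.94% lower, so 3 uncalled genes do not set the locus apart. AT4G27130 had 114.7 and 104.2 RPKM in adm-2 and 88.1 and 89.3 RPKM in suvh7-1 seeds, against 87.1 and 99.8 RPKM in triploid seeds, and AT4G27190 was listed at 0 in every library.

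The genes with the pattern most like the mean of the 8 members over the 10 libraries were sought among 18376 others with a mean of at least 1 RPKM. Pearson's r on log2(RPKM + 0.1) was 0.987 for AT1G45180, a RING/U-box protein, 0.983 for AT5G07260, a START domain protein, 0.972 for ANNAT4, an annexin, 0.967 for OFP8, an ovate family protein, and 0.962 for AT5G07160, a bZIP factor. The 10 points are 5 groups of 2 libraries, so r describes the order of the groups, and the genes were chosen by it. Their range was narrower than that of the members: log2 fold changes of adm-2 over triploid seeds were 0.67, 0.90, 2.18, 1.69 and 2.61 in the same order. AT5G07160 had 25.2 and 21.7 RPKM in adm-2 and 23.4 and 27.5 RPKM in suvh7-1 seeds, 5.55 and 8.67 RPKM in peg2 and 4.45 and 3.14 RPKM in triploid seeds, against 12.3 and 13.8 RPKM in diploid seeds.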

How the data were processed

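Total RNA of whole seeds was sequenced as TruSeq libraries in 10 samples, 2 for each of 5 crosses. According to the submitters' notes the reads were mapped with TopHat 2.0.10 to TAIR10, and the study's methods state a limit of 1 alignment for each read, so a read that matches several gene copies is given to 1 of them or to none. The authors deposited RPKM per gene for 33602 genes, and the tool that computed them is not given in the sources used here. Groups were taken from the sample labels.

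In the re-analysis, genes above 0 in at least 2 libraries (26601) were tested on log2(RPKM + 0.1) with limma 3.58.1 (R 4.3.3; lmFit, contrasts.fit and eBayes with trend) over all 10 libraries, with Benjamini-Hochberg adjustment within each of 10 contrasts. A gene was called at an adjusted p under 0.05 and a log2 fold change past 1. Fold changes are on that scale and understate the change of low genes. With 2 seed pools per group, p-values measure the spread between these pools. The study's rank product test was not used here. Reads of the 8 genes were recovered by dividing RPKM by the value of 1 read, and mates of a pair seem to have been counted separately, so that counting intervals, which are Clopper-Pearson intervals, may be too narrow. The recovery came out whole for 64.0% of 6789 low values of other genes, within 0.05 of a read, so no count test was run.

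The 8 genes and all gene lists were chosen with earlier results of these data known. Named genes were drawn from the 8 members, at most 3 of each list by mean RPKM among those called, the maturation regulators, the genes mutated in the pollen and the 5 most similar genes. Not every gene that could be named was named. Outside this rule, EM1, EM6, M17, DRN, WUS and the genes flanking the SESA array were named for their levels, and CLO1, CLO2, HSD1, ALPHA-VPE and CRD for their values. Gene positions and promoter windows are from RefSeq for TAIR10.1 (32835 of 33602 identifiers matched), while the deposited table holds no coordinates. The promoter of CRU2 is not reported here. Each script with a test was tested on simulated data. Python 3.11.15 with numpy 2.4.6, pandas 2.3.3 and matplotlib 3.10.9 was used for tables and figures.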

Additional observations from a re-analysis of the deposited data

How the results depend on the processing

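The number of members called was recomputed under other pseudocounts, filters, scalings, models and with each library left out. It fell to 3 for triploid against diploid seeds with a pseudocount of 1, and to 3 for peg2 against diploid seeds with a pseudocount of 1. The members that lost their call there no longer passed the fold threshold. Their log2 fold changes over diploid seeds were -0.23 for CRU2, -0.81 for SESA2 and -0.69 for SESA4 in triploid seeds. In peg2 seeds they were -0.22 for CRU2 and -0.96 for SESA2. With 1 library left out it ranged from 3 to 6 for triploid against diploid seeds (3 without diploid replicate 1), 5 to 8 for adm-2 against triploid (5 without adm-2 replicate 1), 8 to 8 for suvh7-1 against triploid, 0 to 0 for peg2 against triploid and for suvh7-1 against adm-2, 4 to 6 for adm-2 against diploid, 4 to 7 for suvh7-1 against diploid (4 without suvh7-1 replicate 2 and 4 without diploid replicate 2), 4 to 7 for peg2 against diploid, 6 to 8 for peg2 against adm-2 and 7 to 8 for peg2 against suvh7-1 seeds. Of 1590 values of single members under the alternatives, 1515 kept their direction and side of the threshold, 64 lost a call, 11 gained one and 0 reversed. Leaving out 1 library gives fewer samples and its group's lone library is then taken to vary like the others. With a filter at a mean of 1 RPKM SESA5 could not be tested. Weighted by reads instead of RPKM, the cruciferins made up 47.2% of the members in adm-2 seeds and 43.2% in diploid seeds, beside 27.4% and 24.2%.

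The 3 other scalings changed no member call, while median-of-ratios scaling moved the median of all genes by 0.123 for suvh7-1 and 0.120 for peg2 against adm-2 seeds and the calls of adm-2 against triploid seeds to 543 higher and 272 lower, beside 709 and 192. Deviations of libraries with the same replicate number had correlations of -0.202 to 0.241 over 10 pairs of groups. The correlation was above 0.1 in 1 pair, suvh7-1 with peg2 seeds, and lowest for peg2 with diploid seeds. Fitting the replicate number as a replicate block left 79 of 80 member values on their side, and SESA5 in adm-2 against triploid seeds lost its call at a log2 fold change of 2.23 (adjusted p = 0.0617 by limma).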
